A study of Homo sapiens with 30 samples.

Results

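The nucleolar ribosome assembly genes were a list of 46 genes whose products make ribosomal RNA in the nucleolus and build the 2 ribosomal subunits from it. They were taken by gene symbol, and all 46 were found once in each of the 3 count tables, of 60612 gene rows in the knockout table and 56303 in each of the overexpression and knockdown tables. They fell into 5 genes of RNA polymerase I transcription, 5 of the small nucleolar ribonucleoproteins (snoRNPs), 3 for abundant nucleolar proteins and the helicase DDX21, 13 of the small subunit (SSU) processome, 5 of late 40S maturation and 15 of 60S assembly.

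RNA polymerase I transcribes a long precursor RNA in the nucleolus, and snoRNPs guide its chemical modification while it is still being made. The SSU processome folds and cuts the part that becomes the 40S subunit, and a separate set of factors assembles the 60S subunit before both leave for the cytoplasm. Many of these genes are known targets of the transcription factor MYC, which binds the sequence CACGTG (the E-box), and tumor cells commonly express them at high levels.

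The data were poly(A) RNA-seq of 5637 cells, a human bladder carcinoma line, in 30 libraries, 3 for each of 10 groups. The study asked how the RNA-binding protein RBPMS and the ANKRD10-1 and ANKRD10-2 splice variants of ANKRD10 act on gene expression. The first table held RBPMS-KO groups KO1 and KO2 with control groups WT1 and WT2. The second held cells with Vector only, ANKRD10-1 overexpression or ANKRD10-2 overexpression, and the third held cells given the control siRNA siNC, siANKRD10-1 or siANKRD10-2. The study's account makes the knockouts with 2 guide RNAs and expands them from single clones, so that a clone and its knockout cannot be told apart. That account places the ANKRD10-1 overexpression and the ANKRD10-2 knockdown in RBPMS knockout cells, whereas the labels name 5637 alone and give each of those tables a shared control, so the RBPMS background of those cells was not settled. No label says that replicates were separate cultures, and p-values then measure the spread between these libraries, which may be technical.

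Library totals ran from 44593108 to 69723937 counts in the knockout table, from 31736779 to 47493499 in the overexpression table and from 28511029 to 32784584 in the knockdown table. The lowest raw count of any of the 46 genes in any library was 337, for POLR1C in the overexpression table. The 7 epithelial markers lay between 75 and 1890 CPM (counts scaled to a common library total), and the 9 leukocyte, endothelial and fibroblast markers between 0 and 4.61 CPM. RBPMS was at 40.4 ± 1.66 CPM in WT1 against 14.9 ± 0.505 in KO1, and at 43.1 ± 0.937 in WT2 against 20.3 ± 1.23 in KO2 (SD, n = 3), so its RNA was reduced and not absent. In the overexpression table RBPMS was at 5.13 ± 0.359 CPM in Vector, 4.50 ± 0.811 in ANKRD10-1 and 5.40 ± 0.788 in ANKRD10-2. In the knockdown table it was at 5.01 ± 0.749 CPM in siNC, 4.65 ± 0.0892 in siANKRD10-1 and 5.11 ± 0.0717 in siANKRD10-2. No treated group of these tables was called different from its control in RBPMS. ANKRD10, counted over all its isoforms, had a log2 fold change of -1.18 in KO1, -0.76 in KO2, 0.67 in ANKRD10-1, 0.41 in ANKRD10-2, -0.24 in siANKRD10-1 and -0.25 in siANKRD10-2, each called by the edgeR test below. In bulk RNA, fewer cells of a kind and less RNA per cell cannot be told apart. CPM values below were scaled by TMM within each table, and levels are not compared between tables.

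Promoter sequences were searched for the E-box. RefSeq promoters, from 250 bases before to 50 after each gene's start, were matched for 37 of the 46 genes, and 16 of the 37 (43.2%) held CACGTG, which reads the same on both strands. The share was 8.77% of all 27305 genes with a promoter, 12.1% of the 12078 genes tested in KO1 and 25.7% of 109 other ribosome assembly genes. In 15 of the 16, the nearest E-box began within 50 bases of the start. Among genes named in the results, BOP1, RSL1D1, NOLC1, RRP12 and RRP1B had no promoter entry. The promoters of WDR75, WDR3, NIP7 and POLR1A held no CACGTG. LTV1, NOP14 and PES1 held it and are not shown. Below are windows of up to 30 bases around the nearest E-box for part of the 16 genes that held one. They run 5′ to 3′ on the gene's strand, with the E-box in capitals and RefSeq coordinates on GRCh38.p14.
DDX21 (chr10:68956604-68956633, + strand): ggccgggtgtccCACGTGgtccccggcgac
WDR43 (chr2:28894658-28894687, + strand): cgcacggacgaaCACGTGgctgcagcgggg
PRMT3 (chr11:20387517-20387546, + strand): ccgcccccacctCACGTGacccgcacggcg
PNO1 (chr2:68157885-68157914, + strand): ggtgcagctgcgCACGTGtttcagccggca
RRP9 (chr3:51941892-51941921, - strand): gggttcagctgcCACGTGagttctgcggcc
GNL3 (chr3:52686026-52686055, + strand): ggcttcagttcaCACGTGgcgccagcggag
NOP2 (chr12:6568242-6568268, - strand): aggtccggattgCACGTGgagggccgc
FBL (chr19:39846356-39846385, - strand): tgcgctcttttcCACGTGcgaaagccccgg
The E-box of PRMT3 began 187 bases before the start, that of DDX21 31 bases before it, and that of WDR43 4 bases after it. A match of these letters is a description and not a binding site.

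The RBPMS knockouts raised most of the 46 genes. In KO1 against WT1, 38 genes rose and 1 fell in edgeR's quasi-likelihood test (adjusted p under 0.05, by the Benjamini-Hochberg method on every gene in the fit), beside 17.9% of 17865 tested genes that rose and 18.2% that fell. Their median log2 fold change was 0.49, against 0.00 for all genes. In KO2 against WT2, 41 rose and 0 fell, beside 19.3% and 19.2% of 18267 tested genes, with a median of 0.31 against -0.02. At an unadjusted p under 0.05, 42 genes passed in KO2, and the share of all genes at that threshold was not counted. The same 36 genes rose in both knockouts, beside 9.44% of 17445 genes tested in both, and UBTF and WDR36 were called in neither.

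**Figure D1:**
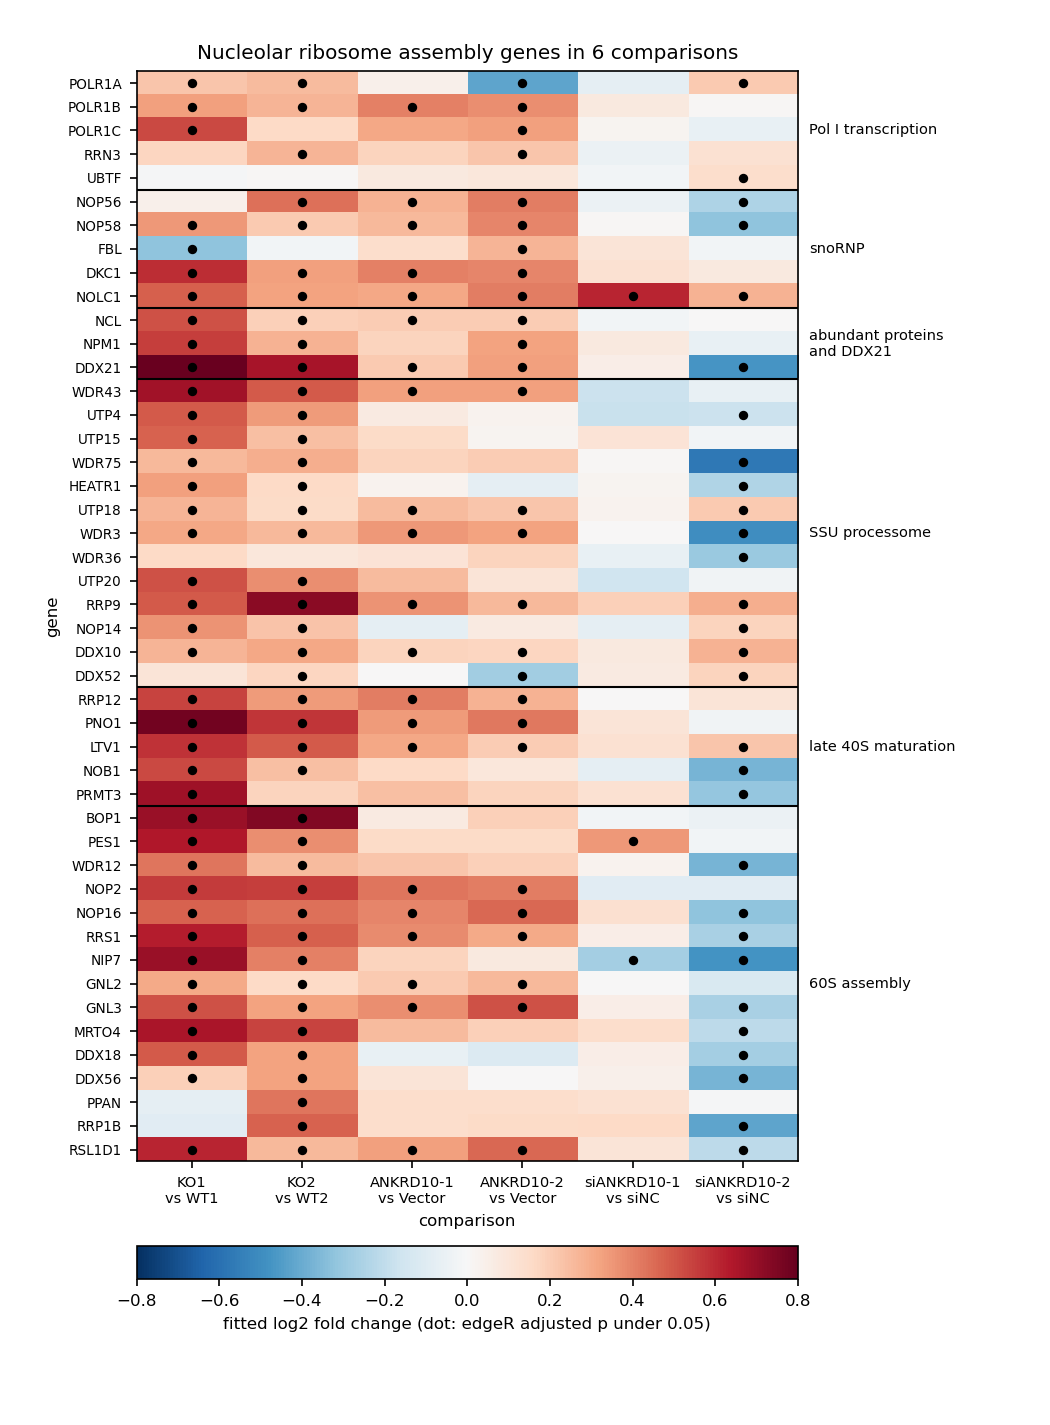
Fitted log2 fold change (colour, red higher and blue lower) of the 46 genes (rows, grouped by role) in the 6 comparisons with a control (columns); dots mark edgeR adjusted p under 0.05. Both knockout columns are mostly red and dotted (38 and 41 rises), and the siANKRD10-2 column is mixed (9 rises, 20 falls).

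DDX21, an RNA helicase of ribosomal RNA transcription and processing, had the largest rise in KO1. Its level was 191, 205 and 213 CPM in the WT1 libraries and 337, 369 and 347 in KO1. The KO1 libraries all lay above the WT1 libraries, with a log2 fold change of 0.79 ± 0.06 (SE) and an edgeR adjusted p of 1.99e-06. In KO2 its level was 294, 295 and 308 CPM against 193, 180 and 194 in WT2, again without overlap (0.66 ± 0.04, edgeR adjusted p = 9.74e-08). DDX21, WDR43, RSL1D1 and PRMT3 were chosen for qRT-PCR and ChIP with these samples in view, so their changes are not independent evidence of a direction.

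WDR43, a subunit of the SSU processome, was at 89.1, 90.6 and 96.1 CPM in WT1 and at 141, 161 and 138 in KO1 (0.67 ± 0.06, edgeR adjusted p = 1.81e-05). In KO2 it was at 128, 123 and 122 CPM against 90.4, 85.0 and 88.8 in WT2 (0.49 ± 0.04, edgeR adjusted p = 2.2e-06). Both pairs of groups were separate. RSL1D1, a nucleolar protein of 60S assembly, rose by a log2 fold change of 0.61 ± 0.05 in KO1 and 0.26 ± 0.04 in KO2, both called by edgeR. PRMT3, an arginine methyltransferase that modifies a 40S protein, was at 34.8, 33.9 and 41.3 CPM in WT1 and at 55.4, 61.0 and 59.96 in KO1 (0.68 ± 0.08, edgeR adjusted p = 7.89e-05). In KO2 its libraries at 44.8, 39.7 and 45.7 CPM overlapped those of WT2 at 40.4, 35.0 and 39.1, and the change was not called (0.18 ± 0.07, edgeR adjusted p = 0.0543).

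**Figure D2:**
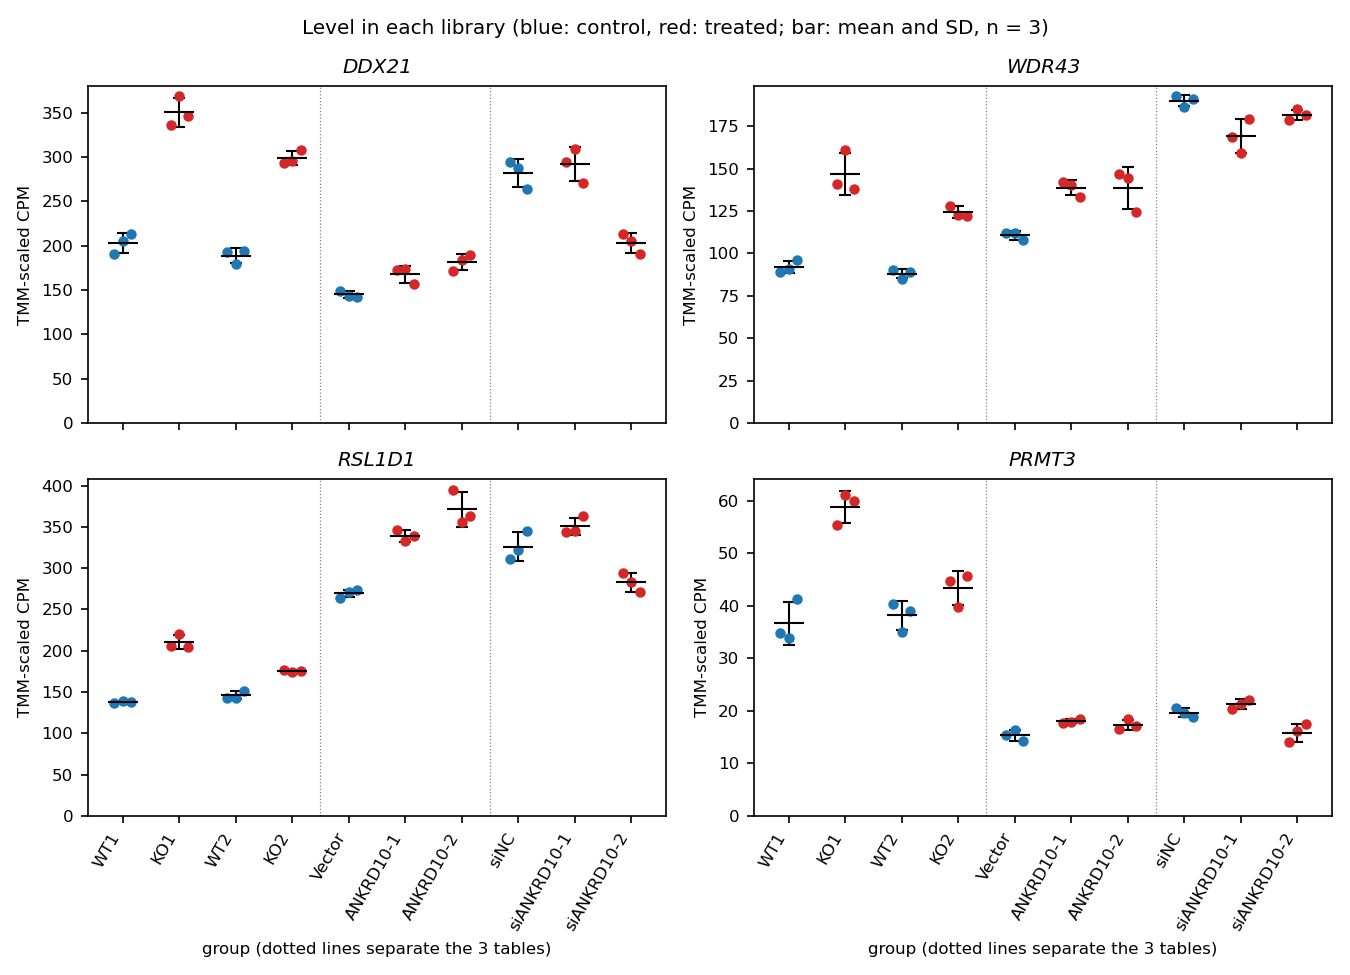
TMM-scaled CPM (vertical axis, from 0) of the 4 genes chosen for qRT-PCR and ChIP, in every library of the 10 groups (horizontal axis), with the mean and SD of 3 libraries; blue is control and red treated. DDX21 lies above its controls in both knockouts and below siNC in siANKRD10-2, and PRMT3 is separate from its control in KO1 and overlaps it in KO2.

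All 5 genes of late 40S maturation rose in KO1 and 4 in KO2, beside 17.9% and 19.3% of all genes tested. PNO1, which holds the precursor of the small subunit RNA near its last cut, was at 22.6, 21.9 and 22.1 CPM in WT1 and at 38.1, 36.2 and 39.4 in KO1 (0.77 ± 0.07, edgeR adjusted p = 7.43e-06). Its log2 fold change was 0.57 ± 0.06 in KO2. LTV1, a 40S assembly factor, rose by 0.58 ± 0.06 and 0.49 ± 0.05, and NOB1, the nuclease that makes that last cut, by 0.53 in KO1 and 0.24 in KO2.

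Of the 15 genes of 60S assembly, 13 rose in KO1 and 15 in KO2, beside 17.9% and 19.3% of all genes tested. BOP1, PES1 and WDR12 form the PeBoW complex of 60S assembly. BOP1 had the largest rise in KO2, from 44.2, 45.3 and 42.2 CPM in WT2 to 73.0, 74.95 and 73.2 in KO2 (0.74 ± 0.05, edgeR adjusted p = 1.74e-07). It rose by 0.69 ± 0.06 in KO1. PES1 rose by 0.64 in KO1 and 0.37 in KO2, and WDR12 by 0.43 and 0.25. NOP2, a methyltransferase of large subunit RNA, rose by 0.56 ± 0.07 and 0.55 ± 0.06.

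The SSU processome gave 11 rises of 13 genes in KO1 and 12 in KO2, beside 17.9% and 19.3% of all genes tested. RRP9, a protein of the U3 snoRNP, was at 9.18, 10.4 and 9.74 CPM in WT2 and at 17.0, 15.9 and 15.6 in KO2 (0.72 ± 0.09, edgeR adjusted p = 5.22e-05). It rose by 0.49 ± 0.13 in KO1, where the control library WT1 replicate 2 lay at 14.6 CPM, just under the lowest KO1 library at 15.3. That call was lost without WT1 replicate 1, WT1 replicate 3 or KO1 replicate 1 (0.38 to 0.45, edgeR adjusted p = 0.0522 to 0.0553). NOP14, another processome subunit, rose by 0.36 in KO1 and 0.23 in KO2.

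NPM1 (nucleophosmin) and NCL (nucleolin), abundant nucleolar proteins, had the highest levels per kilobase of the 46 genes. In WT1, NPM1 was at 268.9 CPM per kilobase and NCL at 115.8, and the next was FBL at 82.6. NPM1 rose by 0.55 ± 0.06 in KO1 and 0.28 ± 0.03 in KO2, and NCL by 0.51 ± 0.06 and 0.19 ± 0.03. NPM1 and RRN3 have pseudogene copies that may share reads with them. Summed over the 46 genes, the level was 5447 ± 158 CPM in WT1 and 7339 ± 234 in KO1, and 5366 ± 52.2 in WT2 and 6576 ± 18.1 in KO2 (SD, n = 3). Without NPM1 and NCL the sums were 3615 ± 56.4 and 4689 ± 99.5 CPM, and 3525 ± 28.9 and 4396 ± 28.1.

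The polymerase I genes had the lowest median log2 fold change of the roles in KO1, 0.22 over 5 genes, and the difference between roles was not tested. POLR1A, the largest subunit of the enzyme, rose by 0.22 ± 0.05 in KO1 and 0.25 ± 0.04 in KO2. POLR1B, another core subunit, rose by 0.33 and 0.27. UBTF, the factor that binds the ribosomal RNA genes, had log2 fold changes of -0.01 ± 0.04 and 0.01 ± 0.03. RRN3, which brings the polymerase to its promoter, rose in KO2 (0.27) and was not called in KO1 (0.17).

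The change differed between the knockouts for 13 of the 46 genes by edgeR's test of the interaction, beside 23.3% of 19189 tested genes. For 9 genes the log2 fold change was higher in KO1 than in KO2, beside 11.2% of all genes, and for 4 it was lower in KO1, beside 12.1%. PRMT3 had the largest difference of the 9 (0.49 ± 0.11, edgeR adjusted p = 0.00444). RSL1D1, NCL and NOB1 followed it with 0.34, 0.31 and 0.29 on the log2 scale. Across the 46 genes the log2 fold changes of the 2 knockouts, which share no library, had Pearson's r of 0.5 and Spearman's rho of 0.49 (n = 46). The genes are not independent replicates, and no test was made.

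**Figure D3:**
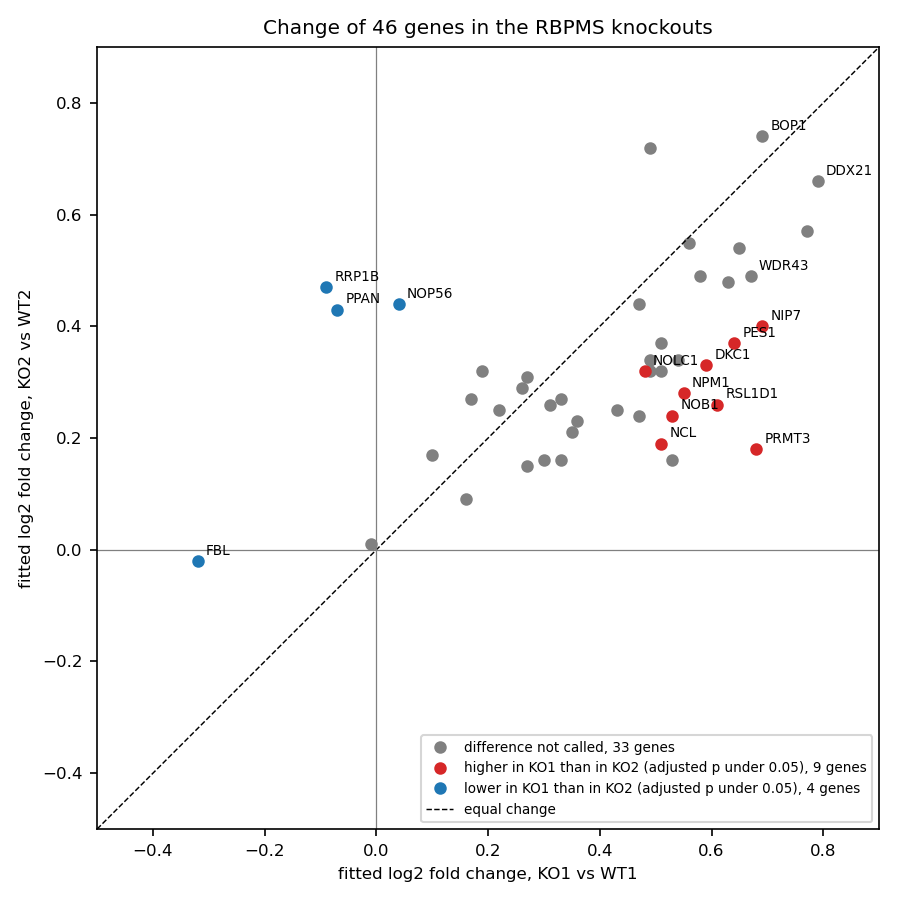
Fitted log2 fold change in KO1 against WT1 (horizontal axis) and in KO2 against WT2 (vertical axis) of the 46 genes; colours mark the 13 genes whose changes differed by the edgeR interaction test and the dashed line equal change. Most points lie in the upper right, and RRP1B, PPAN, NOP56 and FBL lie on the left.

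The 4 genes with the lower log2 fold change in KO1 were FBL, which fell in KO1, and NOP56, PPAN and RRP1B, which rose in KO2. FBL, the methyltransferase of box C/D snoRNPs, was at 181, 175 and 185 CPM in WT1 and at 145, 142 and 146 in KO1, the only fall in a knockout (-0.32 ± 0.04, edgeR adjusted p = 0.00025). In KO2 it had -0.02 ± 0.04. NOP56, a core protein of the same particles, had 0.04 ± 0.04 in KO1, where its libraries overlapped, and rose in KO2 from 202, 210.0 and 209 CPM to 282, 292 and 272 (0.44 ± 0.04, edgeR adjusted p = 2.26e-06). RRP1B, of 60S assembly, had -0.09 ± 0.05 in KO1 and rose by 0.47 ± 0.04 in KO2. PPAN, also of 60S assembly, had -0.07 ± 0.09 and 0.43 ± 0.08, and its counts are uncertain because a readthrough transcript, PPAN-P2RY11, covers it.

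These genes were set beside the median log2 fold change of their chromosomes. FBL and PPAN lie on chromosome 19, where the median log2 fold change in KO1 was -0.38, and RRP1B on chromosome 21, where it was -0.27. In KO2 the medians were 0.00 on chromosome 19, 0.16 on chromosome 21 and 0.07 on chromosome 20. On the chromosomes of the other 43 genes the medians lay between -0.01 and 0.06 in KO1, including chromosome 20 of NOP56 at -0.01. Relative to its chromosome, FBL was at 0.06 in KO1, PPAN at 0.31, RRP1B at 0.18 and NOP56 at 0.05. In KO2 these relative values were -0.02 for FBL, 0.43 for PPAN, 0.31 for RRP1B and 0.37 for NOP56. The part of chromosome dosage in these values was not tested.

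**Figure D4:**
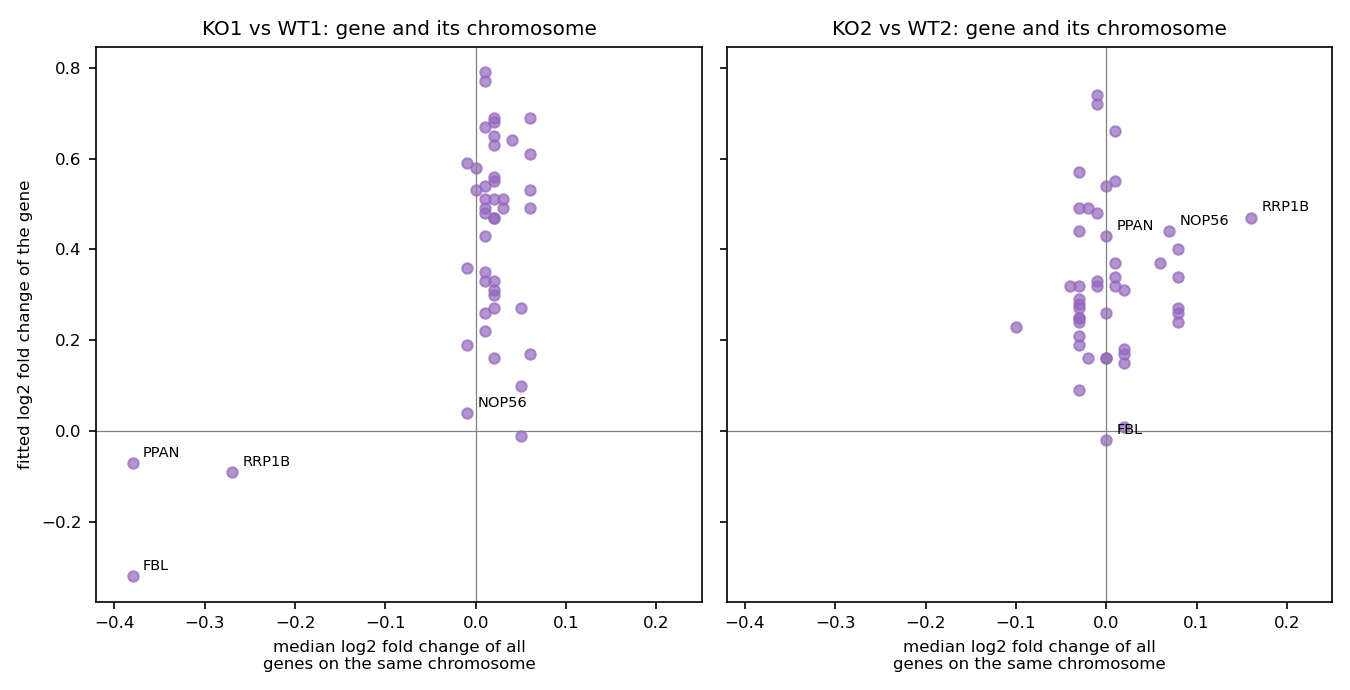
Fitted log2 fold change of each of the 46 genes (vertical axis) against the median log2 fold change of genes on its chromosome (horizontal axis) in KO1 and KO2. In KO1, FBL and PPAN at -0.38 and RRP1B at -0.27 stand apart on the left, and in KO2 the median farthest to the right is that of RRP1B at 0.16.

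Between the control groups WT2 and WT1, edgeR called 0 of the 46 genes, beside 0.578% of 18335 tested genes that were higher and 0.654% that were lower (1.23% in all), and their median difference was -0.04. At an unadjusted p under 0.05, 9 genes passed, and the share of all genes at that threshold was not counted. DESeq2 called 1 of the 46 genes, beside 690 of 18335 tested genes.

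Overexpression of ANKRD10-1 raised 21 of the 46 genes and lowered 0, beside 3.5% and 2.81% of 20457 tested genes (6.31% in either direction), with a median log2 fold change of 0.21 against 0.00 for all genes. At an unadjusted p under 0.05, 34 genes passed, and the share of all genes at that threshold was not counted. ANKRD10-2 raised 25 and lowered 2, beside 10.7% and 9.25% of 20177 tested genes, with a median of 0.20 against -0.01. The comparisons share the Vector libraries.

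NOP2 had the largest rise in ANKRD10-1. It was at 33.8, 32.7 and 31.5 CPM in Vector and at 44.4, 43.7 and 43.5 in ANKRD10-1 (0.43 ± 0.05, edgeR adjusted p = 7.37e-05). In ANKRD10-2 it was at 45.4, 40.3 and 44.4 CPM (0.41 ± 0.06, edgeR adjusted p = 0.000491). RRP12, a factor of 40S maturation and export, and POLR1B were the next largest in ANKRD10-1, with 0.41 ± 0.06 and 0.40 ± 0.08. Of the other assembly roles, DKC1, the pseudouridine synthase of H/ACA snoRNPs, rose by 0.40 ± 0.05 and 0.39 ± 0.05.

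GNL3 (nucleostemin), a GTPase of 60S assembly, had the largest rise in ANKRD10-2. It was at 135, 125 and 129 CPM in Vector and at 193, 178 and 183 in ANKRD10-2 (0.51 ± 0.05, edgeR adjusted p = 9.84e-06). In ANKRD10-1 it was at 171, 172 and 159 CPM (0.37 ± 0.05, edgeR adjusted p = 8.2e-05). Both groups lay above Vector. RSL1D1 and NOP16, also of 60S assembly, rose by 0.46 ± 0.05 and 0.46 ± 0.09 in ANKRD10-2.

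Of the genes chosen for qRT-PCR and ChIP, DDX21 rose by 0.21 ± 0.05 in ANKRD10-1 and 0.33 ± 0.05 in ANKRD10-2, and WDR43 by 0.33 ± 0.04 and 0.33 ± 0.06. The DDX21 call in ANKRD10-1 was lost without ANKRD10-1 replicate 1 or 2 (both 0.19, edgeR adjusted p = 0.0763 and 0.0776). RSL1D1 rose by 0.33 ± 0.04 in ANKRD10-1. PRMT3 had 0.24 ± 0.07 and 0.18 ± 0.08 and was called in neither (edgeR adjusted p = 0.0676 and 0.13).

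**Figure D5:**
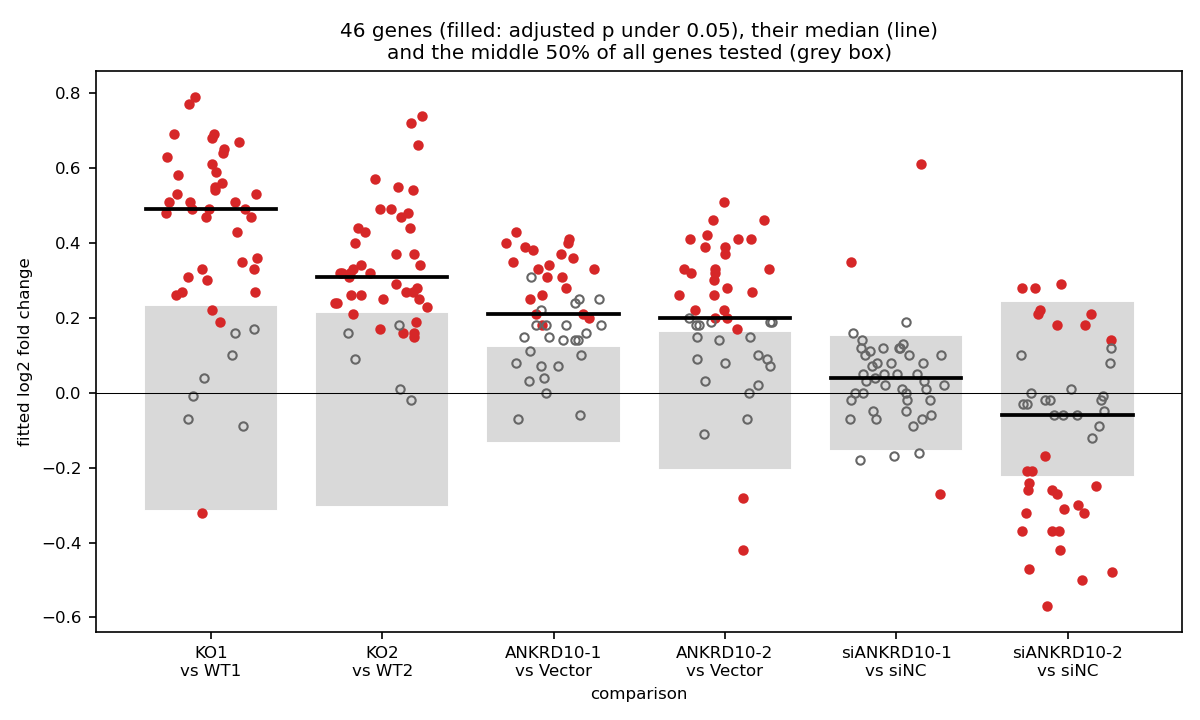
Fitted log2 fold change (vertical axis) of the 46 genes in the 6 comparisons with a control (horizontal axis), filled where the edgeR adjusted p was under 0.05, with their median (black line) and the middle 50% of all genes tested (grey box). The median lies above the box in both knockouts and both overexpressions (0.49, 0.31, 0.21 and 0.20) and inside it in both knockdowns (0.04 and -0.06).

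The direct test of ANKRD10-2 against ANKRD10-1 overexpression called 0 rises and 2 falls, beside 4.15% and 3.1% of 20052 tested genes (7.26% in either direction), and the median difference was 0.00. For the 44 genes not called, the differences lay between -0.14 and 0.14 and their 95% intervals between -0.30 and 0.27. POLR1A was at 16.1, 15.1 and 15.8 CPM in ANKRD10-1 and at 9.56, 12.4 and 12.4 in ANKRD10-2 (-0.45 ± 0.10, edgeR adjusted p = 0.00559). Against Vector at 12.95, 17.3 and 15.7 CPM it fell in ANKRD10-2 (-0.42 ± 0.12, edgeR adjusted p = 0.0246), a call lost without Vector replicate 2 (-0.32, adjusted p = 0.117) or ANKRD10-2 replicate 1 (-0.30, adjusted p = 0.102). DDX52, a helicase of the SSU processome, was at 98.5, 94.99 and 101.3 CPM in ANKRD10-1 and at 77.6, 81.6 and 84.0 in ANKRD10-2 (-0.28 ± 0.05, edgeR adjusted p = 0.00272).

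Of the 46 genes, siANKRD10-1 raised 2 and lowered 1, beside 5.08% and 5.52% of 18785 tested genes, with a median of 0.04. siANKRD10-2 raised 9 and lowered 20, beside 17.6% and 18.7% of 18924 tested genes, with a median of -0.06 against 0.00 for all genes. The rises were close to the background share and the falls above it. Both comparisons share the siNC libraries.

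In siANKRD10-1, NOLC1, a chaperone of snoRNPs, rose from 190, 199.7 and 199 CPM in siNC to 287, 307 and 303 (0.61 ± 0.05, edgeR adjusted p = 7.86e-07). It was at 239, 234 and 241 CPM in siANKRD10-2 (0.28 ± 0.05, edgeR adjusted p = 0.000102). NOLC1 lay above siNC in both knockdowns. PES1 rose by 0.35 ± 0.06 in siANKRD10-1 and had -0.02 ± 0.06 in siANKRD10-2, and the direct test between the knockdowns called that difference (-0.36 ± 0.05, edgeR adjusted p = 1.61e-05). NIP7, of 60S assembly, was at 44.1, 39.2 and 44.5 CPM in siNC, at 35.1, 35.3 and 35.6 in siANKRD10-1 (-0.27 ± 0.07, edgeR adjusted p = 0.0124) and at 29.8, 30.3 and 31.4 in siANKRD10-2 (-0.48 ± 0.07, edgeR adjusted p = 1.94e-06). Its call in siANKRD10-1 was lost without siNC replicate 1 (-0.24, edgeR adjusted p = 0.0668) or siANKRD10-1 replicate 1 (-0.27, edgeR adjusted p = 0.0655).

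In siANKRD10-2, falls within the list were most frequent in 60S assembly, where 10 of 15 genes fell and 0 rose, with a median of -0.26. Of all genes tested, 17.6% rose and 18.7% fell. The other 47 genes of 60S assembly, outside the list, did not share this pattern. Of these, 14 rose and 13 fell, with a median of -0.05. The SSU processome was split, with 5 rises and 5 falls of 13 genes. WDR75, a processome subunit, had the largest fall, from 28.1, 29.97 and 31.6 CPM in siNC to 19.1, 21.2 and 19.9 (-0.57 ± 0.07, edgeR adjusted p = 6.01e-07). WDR3, of the same particle, fell from 68.4, 67.5 and 71.0 CPM to 48.9, 49.0 and 48.0 (-0.50 ± 0.06, edgeR adjusted p = 7.11e-08). Both groups were separate for each gene. RRP9 and DDX10, also of the processome, rose by 0.29 ± 0.07 and 0.28 ± 0.05.

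DDX21 was at 295, 287 and 265 CPM in siNC and at 213, 205 and 191 in siANKRD10-2 (-0.47 ± 0.06, edgeR adjusted p = 2.63e-07). In siANKRD10-1 it was at 295, 310 and 271 CPM and overlapped siNC (0.05 ± 0.06). RSL1D1 and PRMT3 fell by 0.21 and 0.31 on the log2 scale in siANKRD10-2 and were not called in siANKRD10-1 (0.10 and 0.12). The PRMT3 call was lost without siANKRD10-2 replicate 1 (-0.23, edgeR adjusted p = 0.0582). WDR43 was called in neither, with -0.06 ± 0.05 and -0.17 ± 0.06.

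The direct test of siANKRD10-2 against siANKRD10-1 called 6 rises and 22 falls, beside 18.2% and 18.8% of 18832 tested genes, with a median of -0.13. RRP1B had the largest fall, from 151, 165 and 148 CPM in siANKRD10-1 to 106, 99.8 and 104.7 in siANKRD10-2 (-0.58 ± 0.06, edgeR adjusted p = 3.56e-08). WDR75 followed with -0.57 ± 0.07 and DDX21 with -0.52 ± 0.06. POLR1A, NOP14 and DDX10 rose by 0.29, 0.25 and 0.20, and the DDX10 call was lost without siANKRD10-2 replicate 2 (0.17, edgeR adjusted p = 0.0564). ANKRD10 over all isoforms did not separate the knockdowns (0.00 ± 0.06).

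MYC itself had log2 fold changes of 0.42 in KO1, 0.17 in KO2, 0.16 in ANKRD10-1, 0.55 in ANKRD10-2, 0.08 in siANKRD10-1 and -0.60 in siANKRD10-2, and edgeR called those of KO1, KO2, ANKRD10-2 and siANKRD10-2. In the direct tests MYC was higher in ANKRD10-2 than in ANKRD10-1 (0.39 ± 0.06, edgeR adjusted p = 0.00031). It was lower in siANKRD10-2 than in siANKRD10-1 (-0.68 ± 0.07, edgeR adjusted p = 5.22e-08). Its part in the values of the 46 genes was not tested.

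Genes with and without an E-box were described side by side. In KO1 the median log2 fold change was 0.54 over the 16 genes with CACGTG and 0.33 over the 21 without, and in KO2 it was 0.37 and 0.27. The KO1 values overlapped, from -0.32 to 0.79 with CACGTG and from -0.07 to 0.69 without. In ANKRD10-1 the medians were 0.25 and 0.18, in ANKRD10-2 0.24 and 0.19, in siANKRD10-1 0.05 and 0.02, and in siANKRD10-2 -0.04 and -0.06. In siANKRD10-2, 4 of the 16 rose and 5 fell, and 3 of the 21 rose and 10 fell, beside 17.6% and 18.7% of all genes tested. The differences between genes with and without an E-box were not tested. FBL, the gene that fell in KO1, held an E-box.

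The other 124 ribosome assembly genes gave the wider setting. In KO1, 79 rose and 4 fell (63.7% and 3.23%), beside 17.9% and 18.2% of all genes tested. In KO2, 73 rose and 9 fell (58.9% and 7.26%), beside 19.3% and 19.2%. The medians were 0.27 in KO1 and 0.19 in KO2. NOL6 and EMG1, of the SSU processome, had the largest rises in KO1 (0.74 ± 0.05 and 0.70 ± 0.06). NOP53, of 60S assembly, had the largest fall (-0.50 ± 0.05), followed by ESF1 of the processome (-0.47 ± 0.11). NOP53 also fell in KO2 (-0.32 ± 0.04), as did RCL1 of the processome (-0.34 ± 0.10). The largest rises in KO2 were those of PWP2, a processome subunit at 1.24 CPM in WT2 and 2.15 in KO2 (0.80 ± 0.27), and POLR1G, a polymerase I subunit (0.67 ± 0.06). ANKRD10-1 raised 32 and lowered 0 (25.8% and 0%), beside 3.5% and 2.81% of all genes tested. ANKRD10-2 raised 38 and lowered 2 (30.6% and 1.61%), beside 10.7% and 9.25%. Both had a median of 0.11. NOL6 (0.44 ± 0.11) and RIOK1, a kinase of 40S maturation (0.39 ± 0.05), rose most in ANKRD10-1. TAF1D (0.52 ± 0.05) and POLR1G (0.51 ± 0.06), both of polymerase I transcription, rose most in ANKRD10-2, where TBL3 and PIH1D1 fell by 0.49 and 0.21. siANKRD10-1 raised 21 and lowered 4 (16.9% and 3.23%), beside 5.08% and 5.52% of all genes tested. TCOF1 and EXOSC3, a subunit of the RNA exosome, rose most (both 0.38), and BUD23, a methyltransferase of small subunit RNA, and NOL6 fell by 1.24 and 0.27 on the log2 scale. siANKRD10-2 raised 29 and lowered 39 (23.4% and 31.5%), beside 17.6% and 18.7%, with a median of -0.07. C1D, a cofactor of the RNA exosome, and NOP10, of H/ACA snoRNPs, fell by 1.01 and 0.84 in siANKRD10-2. GRWD1 (0.51 ± 0.08) and RIOK1 (0.46 ± 0.06) rose most there.

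Of the 46 genes, 26 are overlapped by another annotated gene, with small RNA genes such as snoRNAs and miRNAs left out of the count. Protein-coding genes on the same strand overlap LTV1, NOP2, RRS1, UTP4 and PPAN, and counting by strand would not separate any shared reads. The library kit kept strand, and whether the counting used it is not given in the sources used here, so reads of genes such as RRN3 and its opposite-strand neighbour PDXDC1 may not be separate.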

How the data were processed

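Poly(A) RNA-seq libraries of 5637 cells were analysed from 3 tables of raw counts per gene deposited by the authors. Per the labels, the authors trimmed reads (Trimmomatic 0.36) and counted them on GRCh38 (featureCounts, Subread 1.5.1). The study's methods name Cutadapt and Trimmomatic for trimming, HISAT2 for alignment and StringTie for expression levels, and do not name featureCounts. Which counter and annotation made the knockout table was not settled from the sources used here. Groups came from the labels. Each treated group was compared with its own control, using only the libraries compared, with edgeR 4.0.16 in R 4.3.3: filterByExpr (minimum count 10, total 15), TMM scaling, the quasi-likelihood test and Benjamini-Hochberg adjustment over all genes tested, at 0.05. The knockouts were compared by their interaction in 1 fit of 4 groups. The fits were tested on simulated counts. Total counts, given above as a range per table, and the 3 libraries per group set the precision. Per-library CPM used TMM factors over each table, and levels per kilobase used the exon lengths deposited with the overexpression table. Those lengths served all 3 tables, because the knockout table held no lengths.

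The 46 genes and the list of 124 others were chosen with earlier results of these data known. Named with values were the 4 genes the study measured further, the 3 largest called rises and falls without overlap in each comparison (2 for the 124 genes), and the gene with the highest level in each role, averaged over tables that were not scaled together. Other genes are named for their role or their difference between the knockouts, after their values were seen. Alternatives were DESeq2 1.42.0, RLE factors, library totals only, no filter, all libraries of a table, all WT libraries, a replicate block and leaving out each library. Values relative to the chromosome median were added after seeing the data. Chi-square per gene between replicates was 4.12 to 19.51 over 30 pairs, above sampling noise, and every library was kept as its own replicate. These values cannot tell separate cultures from technical libraries of 1 culture.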

Additional observations from a re-analysis of the deposited data

Results flagged for a closer look

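The change from the own control differed between KO1 and KO2 for 13 of the 46 genes, by edgeR's interaction test with Benjamini-Hochberg adjustment over 19189 genes. The same test called 23.3% of all genes, 11.2% higher in KO1 and 12.1% lower. Of the 46 genes, 19.6% were higher and 8.7% lower. The log2 fold change was higher in KO1 than in KO2 for PRMT3 (0.49 on the log2 scale, edgeR adjusted p = 0.00444), RSL1D1 (0.34, 0.000311), NCL (0.31, 0.00235), NOB1 (0.29, 0.00777), NIP7 (0.28, 0.00914), NPM1 (0.27, 0.0107), PES1 (0.26, 0.00724), DKC1 (0.26, 0.0057) and NOLC1 (0.16, 0.0329). It was lower in KO1 than in KO2 for FBL (-0.31, edgeR adjusted p = 0.00163), NOP56 (-0.40, 3.66e-05), PPAN (-0.49, 0.0105) and RRP1B (-0.56, 7.78e-06). FBL fell in KO1, and the other 3 rose in KO2. NOLC1 was not called under every alternative. RBPMS differed between the knockouts in the same test (-0.36, edgeR adjusted p = 0.00672), as did ANKRD10 (-0.42, 0.00016) and MYC (0.25, 0.028), and their part in these values was not tested.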

How the results depend on the processing

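No gene called in any comparison changed direction under an alternative. Among called genes, 36 of 39 in KO1, 38 of 41 in KO2, 13 of 21 in ANKRD10-1, 18 of 27 in ANKRD10-2, 2 of 3 in siANKRD10-1, 23 of 29 in siANKRD10-2, 2 of 2 between the overexpressions, 20 of 28 between the knockdowns and 12 of 13 in the interaction were called under every alternative. The calls lost under at least 1 alternative were those of DDX56, RRP9 and WDR75 in KO1, GNL2, UTP18 and WDR75 in KO2, DDX10, DDX21, GNL2, NCL, NOP16, NOP58, PNO1 and RRP9 in ANKRD10-1, DDX10, LTV1, NCL, POLR1A, POLR1C, RRN3, RRP12, RRP9 and UTP18 in ANKRD10-2, NIP7 in siANKRD10-1, DDX52, POLR1A, PRMT3, UBTF, UTP4 and WDR36 in siANKRD10-2, DDX10, NIP7, NOP56, NPM1, RRN3, UBTF, UTP18 and WDR36 between the knockdowns and NOLC1 in the interaction. With library totals only, the medians were 0.44 in KO1, 0.27 in KO2, 0.16 in ANKRD10-1, 0.12 in ANKRD10-2, -0.04 in siANKRD10-2, -0.04 between the overexpressions and -0.10 between the knockdowns. That scaling moved the share of rises among all called genes from 55.5% to 30.8% in ANKRD10-1, from 53.5% to 27.6% in ANKRD10-2 and from 57.3% to 38.4% between the overexpressions, and the median of all genes by under 0.1. The KO2 median was 0.30 with no filter and 0.26 against all WT libraries, and the KO1 median was 0.46 relative to the chromosome median. DESeq2 called 1 gene between WT2 and WT1. WDR43, at 0.00 between the overexpressions, turned sign with DESeq2 (0.00) and RLE factors (0.00), and ran from -0.05 to 0.07 with 1 library left out.

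Leaving out each library in turn gave medians of 0.45 to 0.49 in KO1, 0.28 to 0.32 in KO2, 0.20 to 0.25 in ANKRD10-1, 0.20 to 0.24 in ANKRD10-2, -0.10 to -0.06 in siANKRD10-2, -0.03 to 0.00 between the overexpressions, -0.16 to -0.12 between the knockdowns, -0.07 to -0.03 between the WT groups and 0.10 to 0.15 in the interaction. Called genes ran from 36 to 39 in KO1, 40 to 41 in KO2, 15 to 22 in ANKRD10-1, 20 to 25 in ANKRD10-2, 2 to 4 in siANKRD10-1 and 24 to 28 in siANKRD10-2. Deviations of same-numbered libraries had correlations of -0.06 to 0.13, which were not compared with those of differently numbered libraries. With the replicate block, 6 genes were called in siANKRD10-1 in place of 3. Over all genes, the block moved the calls from 1991 to 2778 in siANKRD10-1, from 4017 to 4766 in ANKRD10-2 and from 6454 to 6082 in KO1. Whether replicate numbers pair the libraries was not settled. Depth and 3 libraries per group limit what can be seen: standard errors of the 46 genes were 0.03 to 0.13 within the comparisons with a control.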
